A study of Mus musculus with 6 samples.

Results

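The genes described here encode 10 transcription factors that naive CD4+ T cells are known to depend on: Tcf7, Lef1, Bach2, Foxp1, Satb1, Bcl11b, Ets1, Ikzf1, Ikzf3 and Myb. They were picked by symbol, with earlier results of these data known, and are 10 of the 55487 genes in the deposited tables. Polyadenylated RNA was sequenced from naive CD4+ T cells freshly taken from the spleen (3 libraries) or from the mesenteric lymph nodes, the nodes that drain the gut (mLN, 3 libraries). All mice were WT C57BL6/J animals that had received no treatment, so organ is the one labelled difference between the groups. The labels give neither the age of the mice nor the way in which naive cells were purified, nor do they tie replicates to separate animals. The p-values below therefore describe the spread between these libraries, and part of that spread may be technical.

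TCF1 (from Tcf7) and LEF1 are related DNA-binding proteins that act with beta-catenin or with Groucho/TLE repressors, and together they set up and keep T cell identity from the thymus onward. BACH2 represses effector programs and competes with AP-1 factors for their sites, FOXP1 enforces quiescence, SATB1 organises chromatin loops, and BCL11B secures commitment to the T lineage. ETS1, Ikaros (Ikzf1), Aiolos (Ikzf3) and c-MYB are broader lymphoid regulators, and Ikaros proteins work with the NuRD chromatin remodelling complex. Several of these genes fall in expression once a T cell is activated, which is why they are used as markers of the naive and stem-like state.

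Start-site sequences are shown for 4 of these genes: for Bach2 and Lef1, which rose in mLN and carry TCF/LEF motif letters, for Ikzf1, which rose and whose first window holds none of the motifs searched, and for Myb, which fell. Each is the 250 bases before a RefSeq start site (GRCm38.p6, the assembly called mm10), written 5′ to 3′ along the gene's strand. None of the 4 windows overlaps an exon of the GENCODE vM21 annotation. Capitals mark the letters that matched a motif.
Bach2, chr4:32417185-32417434, plus strand, an internal start of the gene: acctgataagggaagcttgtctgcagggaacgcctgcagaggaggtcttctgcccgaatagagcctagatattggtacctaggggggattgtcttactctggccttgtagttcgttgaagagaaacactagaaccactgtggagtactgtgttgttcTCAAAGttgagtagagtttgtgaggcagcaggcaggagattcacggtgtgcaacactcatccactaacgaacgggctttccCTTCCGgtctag
Lef1, chr3:131156044-131156293, plus strand, an internal start of the gene: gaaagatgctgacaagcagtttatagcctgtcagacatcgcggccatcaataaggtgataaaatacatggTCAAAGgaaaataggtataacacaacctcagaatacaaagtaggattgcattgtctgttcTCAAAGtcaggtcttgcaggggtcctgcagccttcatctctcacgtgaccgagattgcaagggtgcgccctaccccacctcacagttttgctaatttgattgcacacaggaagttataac
Ikzf1, chr11:11685675-11685924, plus strand: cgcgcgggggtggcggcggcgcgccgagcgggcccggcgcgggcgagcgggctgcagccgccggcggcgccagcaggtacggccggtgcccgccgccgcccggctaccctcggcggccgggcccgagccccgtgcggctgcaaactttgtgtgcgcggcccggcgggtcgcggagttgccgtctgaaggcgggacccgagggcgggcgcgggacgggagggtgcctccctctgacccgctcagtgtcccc
Myb, chr10:21160985-21161234, minus strand: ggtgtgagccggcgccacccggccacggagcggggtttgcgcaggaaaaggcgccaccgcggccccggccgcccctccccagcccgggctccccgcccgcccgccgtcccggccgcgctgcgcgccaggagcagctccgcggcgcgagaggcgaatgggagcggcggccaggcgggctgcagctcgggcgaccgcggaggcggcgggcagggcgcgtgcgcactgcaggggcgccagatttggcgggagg
The Bach2 window holds the letters TCAAAG, the TCF/LEF motif on the minus strand, starting 93 bases before the start site, and the ETS letters CTTCCG starting 12 bases before it. The Lef1 window holds TCAAAG at 180 and again at 120 bases before the start. No motif searched was found in the Ikzf1 and Myb windows, whose GC contents of 82.0% and 81.2% stand above the median of 52.4% over all 32851 promoter windows. The Ikzf1 window, like those of Bach2 and Lef1, lies inside the annotated gene, which begins at 11685003.

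RefSeq windows were given for 8 of the 10 genes, 19 windows in all, and none for Ets1 and Ikzf3. Both strands were searched for 7 short motifs. TCF/LEF (CTTTGA) was found in 4 of the 19 windows, 1 each of Bach2, Bcl11b, Foxp1 and Lef1, against 13.8% of all promoter windows. The other 3 Lef1 windows, among them both at the 5′ end of the gene, held no motif searched. ETS (CGGAAG) was found in 2 of the 19, for Bach2 and Tcf7, against 13.6% of all windows. MYB (CAACNG) was found in 4 of the 19, in windows of Bcl11b, Foxp1 and Ikzf1, against 29.3%, and Ikaros (TGGGAA) in 1, for Satb1, against 21.6%. AP-1/BACH (TGAGTCA), forkhead (TGTTTAC) and RUNX (TGTGGT) had no match in the 19 windows, against 4.46%, 3.17% and 14.0% of all windows. The motifs share no letters in the 4 windows printed. Windows of 1 gene can overlap and are not independent, and a match describes letters only.

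Across the 6 libraries the expected counts summed to between 13205499 and 20054205. Ribosomal protein genes took 11.4% to 11.6% of counts in spleen and 7.83% to 8.64% in mLN, and mitochondrial genome transcripts 3.70% to 4.11% and 2.12% to 2.43%. Both libraries numbered 3 stood apart from the others: across 12473 genes, deviations from the group mean rose with transcript GC content in spleen 3 and mLN 3 (Spearman rho 0.35 and 0.40) and fell with it in the other 4 (-0.13 to -0.26). Deviations of 3 libraries from their own mean sum to 0, so the fall in the other 4 is in part forced by the rise. The defining genes of the label were present in every library, with Cd4 at 929 ± 45.1 and 889.8 ± 12.4 CPM and Trac at 550.2 ± 11.3 and 542 ± 12.3 CPM (mean ± SD, spleen and mLN, n = 3 each), where CPM stands for counts divided by the TMM-scaled size of the library. Of 7 label genes tested, Cd3e was higher in mLN (1.28-fold). Cd3g (0.696 of its spleen level), Ccr7 (0.797) and Il7r (0.568) were lower, and 3 were not called. Over all 12486 tested genes, 16.1% were called higher and 13.5% lower. Markers of several other cell types were present, at levels that differed between the organs. The summed level of 12 B cell genes was 514 to 549.9 CPM in spleen and 349 to 378 CPM in mLN, and 8 of the 12 were lower in mLN. Most of that sum was Ighm, the immunoglobulin heavy chain gene, at 487 ± 15.7 and 339 ± 14.1 CPM (SD, n = 3 each), in spleen not far under Trac. The sum of 10 macrophage genes was 45.9 to 48.2 against 11.6 to 12.3 CPM, and 5 of the 7 tested were lower in mLN. Of these 5, C1qa, C1qc and Vcam1 were near 0 in mLN, and Csf1r was low there (0.854 ± 0.695 CPM, SD, n = 3). C1qa, C1qc, Vcam1 and Csf1r passed the filter on low counts only through spleen. They could come out only as lower. The summed level of 10 genes of memory and effector T cells reached 242.5 to 267 CPM against 166 to 169.6 CPM, with 3 of the 5 tested lower. The calcium-binding protein gene S100a10 made up 104 ± 1.53 and 55.4 ± 2.82 CPM of it (SD, n = 3 each). Sums were 4.79 to 9.68 against 0.75 to 1.10 CPM for 6 dendritic cell genes (2 of 3 tested lower). For 5 NK cell genes they were 3.74 to 8.51 against 1.65 to 5.2 CPM (0 of 2 called). Those of 5 plasma cell genes were 50.5 to 57.6 against 37.2 to 46.2 CPM (1 of 2 lower). Most of the plasma cell sum was Xbp1, which was not called, at 45.9 ± 1.84 and 39.7 ± 4.88 CPM (SD, n = 3 each). The lower gene, Jchain, was at 6.72 ± 1.21 and 0.822 ± 0.366 CPM (SD, n = 3 each). The 2 lower dendritic cell genes, Flt3 and Itgax, also passed the filter only through spleen. So did the B cell genes Fcrla and Cd79b and the plasma cell gene Jchain. The 6 regulatory T cell genes summed to 62.0 to 74.1 against 47.5 to 63.3 CPM (1 of 6 lower) and the 2 CD8 genes to 16.0 to 17.8 against 12.5 to 20.4 CPM (0 called), while the 6 red cell genes reached at most 0.675 CPM. In RNA from many cells, fewer cells of a type cannot be told apart from less RNA per cell.

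The comparison asked how naive CD4+ T cells of the 2 organs differ, here in the 10 transcription factor genes. Of the 10 factor genes, all of which passed the filter on low counts, 7 were higher in mLN (Tcf7, Lef1, Bach2, Satb1, Bcl11b, Ets1 and Ikzf1), 1 was lower (Myb) and 2 (Foxp1 and Ikzf3) did not pass an adjusted p of 0.05 in edgeR's quasi-likelihood test. Over all 12486 genes tested, 16.1% were called higher and 13.5% lower. The called rises were moderate, between 1.20-fold and 1.56-fold, while Myb was at 0.47 of its spleen level. The median log2 fold change (mLN minus spleen) of the 10 was 0.38, or 1.3-fold, beside -0.01 over all tested genes. In CPM every mLN library lay above every spleen library for 9 of the 10 and below for Myb, patterns that 21.5% and 20.3% of all tested genes showed. Counts behind these values ran from 147 for Myb in mLN 2 to 31577 for Ets1 in mLN 3.

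**Figure D1:**
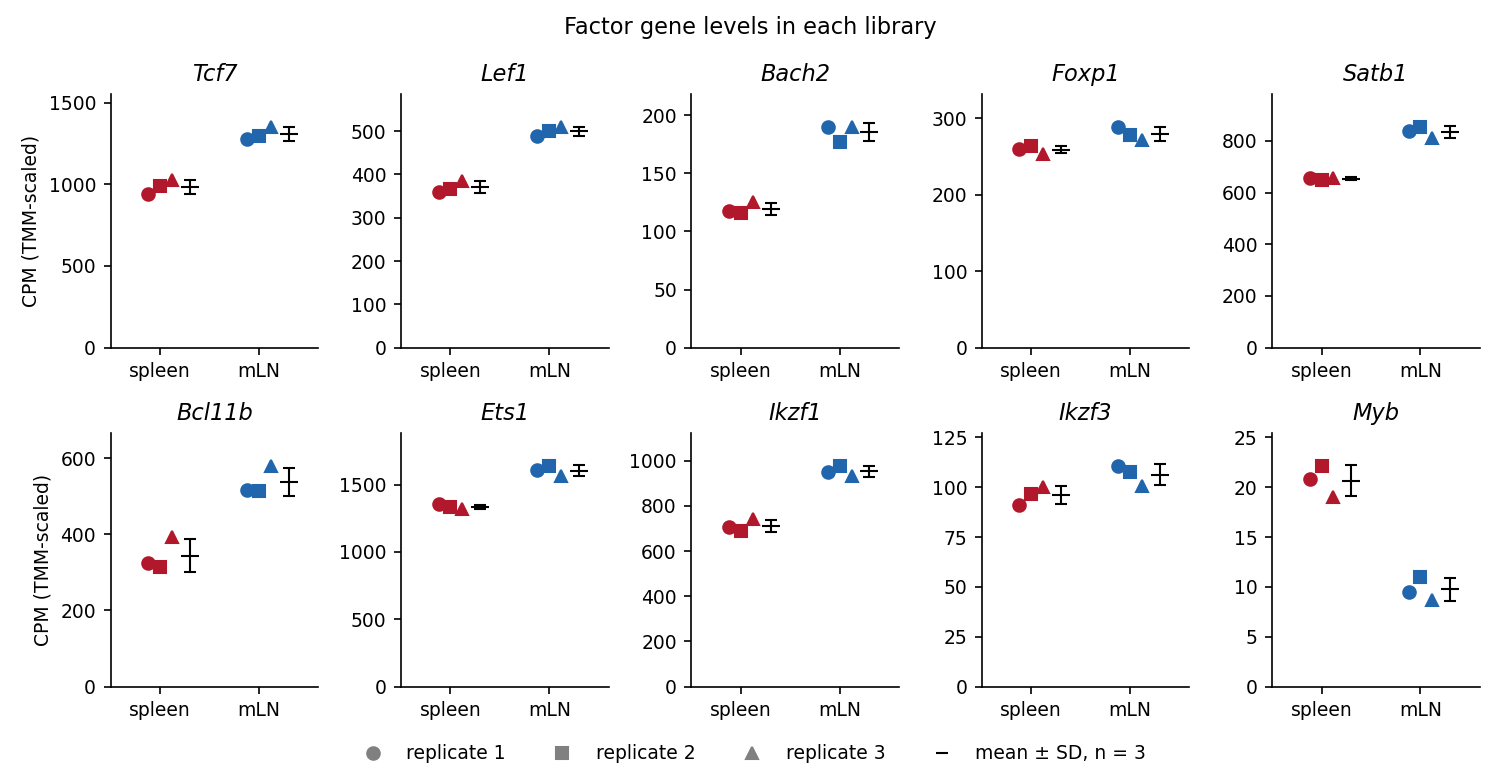
Level of each of the 10 factor genes in each library, in CPM from 0, with 1 panel per gene, red symbols for spleen, blue symbols for mLN, shapes for the replicate number, and bars for the mean ± SD (n = 3). The mLN points lie above the spleen points for 9 genes, narrowly for Ikzf3, and below them for Myb.

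Most of these genes are long, and this bears on their background. Their mean transcript lengths ran from 2353 nucleotides (Tcf7) to 7228 (Bach2), against a median of 2330 over all tested genes. Tcf7 and Lef1 (2385 nucleotides) lie close to that median. The fold change rose with transcript length across genes (Spearman rho 0.37, a description, since genes are not independent). It also rose with transcript GC content (Spearman rho 0.29 over 12473 genes, likewise a description). Among the 5878 tested genes within that range of lengths, 25.8% were called higher and 7.52% lower, and the median log2 fold change was 0.11. Values with the length trend removed are given below beside each factor gene that was called higher.

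**Figure D2:**
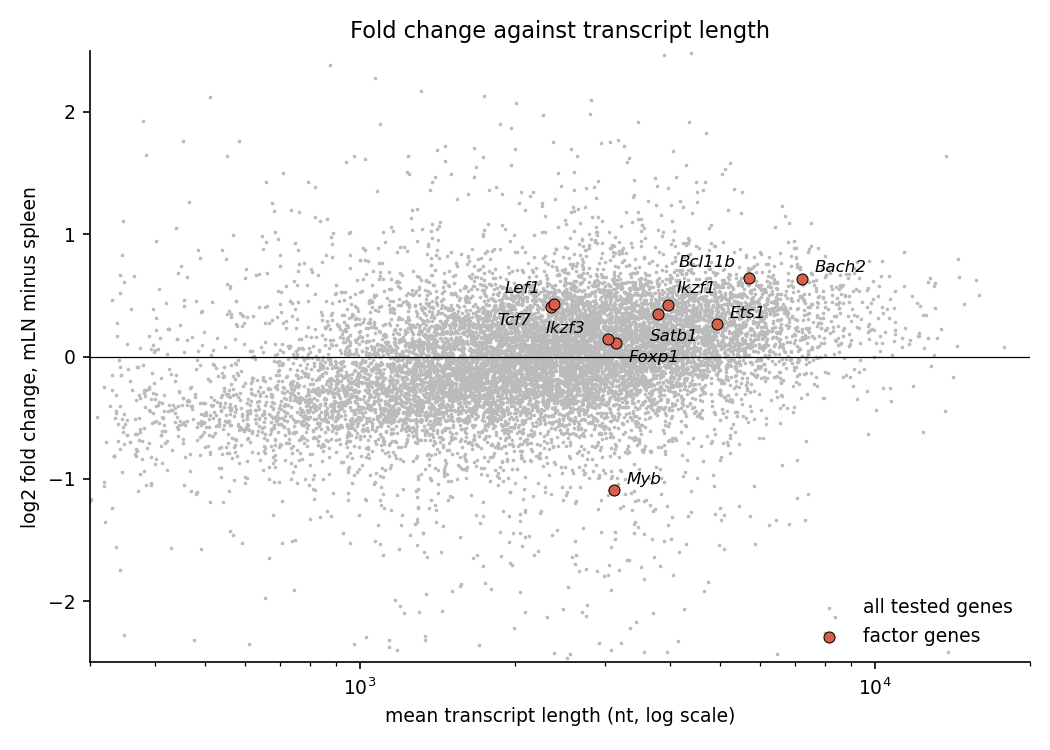
Log2 fold change (mLN minus spleen) of each tested gene against its mean transcript length in nucleotides on a log axis, with the 10 factor genes in red and named and 123 tested genes outside the axes. The cloud of genes climbs from left to right, Bach2 (7228 nucleotides) and Bcl11b lie at its right, and Myb lies at -1.09, under most genes of its length.

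Tcf7 (ENSMUSG00000000782), on the minus strand of chromosome 11 between 52252371 and 52283014, encodes TCF1. It stood at 939, 991 and 1024 CPM in spleen libraries 1 to 3 and at 1274, 1293 and 1352 CPM in mLN libraries 1 to 3. The groups did not overlap, and the library numbered 3 was the highest of its group in both organs. The log2 fold change was 0.41 with a standard error of 0.0542 (1.33-fold, adjusted p = 7.61e-06). Lef1 (ENSMUSG00000027985), on the plus strand of chromosome 3 between 131110471 and 131224356, was at 359, 366 and 385 CPM in spleen and at 489.6, 500.0 and 510.1 CPM in mLN. Its groups were likewise apart, with a log2 fold change of 0.43 ± 0.0564 (SE; 1.35-fold, adjusted p = 5.81e-06). The antisense gene Gm43352 overlaps 1 Lef1 exon and had 126 to 344 counts per library, so a small part of the reads there is uncertain because nothing says whether the counting used strand.

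The pair moved in step. The ratio of Tcf7 to Lef1 reads within a library, which compares libraries and not the levels of the 2 genes, was 2.62, 2.71 and 2.66 in spleen and 2.60, 2.59 and 2.65 in mLN, and the groups overlapped. Neither gene depended on the length trend: with it removed, the log2 fold changes were 0.42 and 0.45.

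Bach2 (ENSMUSG00000040270), on the plus strand of chromosome 4 between 32238804 and 32586108, encodes the repressor whose start-site sequence is shown above. Its levels were 117, 116 and 125 CPM in spleen and 189.9, 177 and 190.2 CPM in mLN. The lowest mLN library was well above the highest spleen library, with a log2 fold change of 0.64 ± 0.0700 (SE; 1.56-fold, adjusted p = 7.55e-07). Of all tested genes, 4.84% had a larger fold change. The antisense model Bach2os, which overlaps its exons, had 4.27 to 15.4 counts per library. Bach2 has the longest transcripts of the set, and after removal of the length trend its difference was 0.40 (1.32-fold, adjusted p = 2.66e-04). Bach1, its ubiquitous paralog that binds the same kind of site, was at 43.3 ± 1.77 and 42.4 ± 2.88 CPM (SD, n = 3 each, adjusted p = 0.853). The ratio of Bach2 to Bach1 reads within a library was 2.76 ± 0.233 in spleen against 4.39 ± 0.461 in mLN (SD, n = 3 each), with no overlap.

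Bcl11b (ENSMUSG00000048251), on the minus strand of chromosome 12 between 107910403 and 108003602, had, with Bach2, the largest rises of the 10. It was at 323, 314 and 393 CPM in spleen and at 516, 515 and 580.1 CPM in mLN, a log2 fold change of 0.64 ± 0.0767 (SE; 1.56-fold, adjusted p = 4.40e-06). The groups were apart, and within each organ the library numbered 3 was the highest. Bcl11b transcripts have a GC content of 63.1%, the highest of the set, against a median of 50.1% over all tested genes. Removal of the GC trend brought it to 0.39 (adjusted p = 1.69e-07), and removal of the length trend to 0.46 (adjusted p = 0.00142). The calls stood in both cases, at a smaller size. Bcl11b and Bach2 differed by less than their standard errors and cannot be ordered, and with the GC trend removed Bcl11b came after Bach2 (0.71), Satb1 (0.48) and Lef1 (0.47).

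The genes whose pattern over the 6 libraries was most like that of Bcl11b, by the root mean square difference of centred log2 CPM among 6644 candidate genes, were Gcn1l1 (0.0150), Cotl1 (0.0273), which encodes an actin-binding protein, and Vasp (0.0293), which encodes a promoter of actin filament growth. Their spleen libraries showed the same high value in replicate 3, with Cotl1 at 334, 343 and 414 CPM in spleen and 541, 533 and 618 CPM in mLN. Like Bcl11b, all 3 have GC-rich transcripts (55.3%, 59.2% and 60.4%, against a median of 50.1% over all tested genes). The libraries numbered 3 deviated with GC content, and its part in this likeness was not tested.

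Foxp1 (ENSMUSG00000030067), on the minus strand of chromosome 6 between 98925338 and 99522721, was at 259.7, 264 and 254 CPM in spleen and at 289, 278 and 272 CPM in mLN. The lowest mLN value exceeded the highest spleen value by a few percent, and the log2 fold change of 0.11 ± 0.0593 (SE; 1.08-fold) did not pass (adjusted p = 0.178). On log2 of the deposited TPM plus 1, which is scaled to transcript length, the difference was 0.49 and passed (adjusted p = 0.00817), but on that scale the median over all tested genes itself became 0.21. Once libraries were centred on their medians the difference was 0.25 and did not pass (adjusted p = 0.116). Its exons overlap those of Gm20696, which had 6.04 to 35.1 counts. Foxp1 has 31 annotated transcripts in the files, and its mean transcript length varied from 2830 to 3510 nucleotides between libraries. There were 1.33 ± 0.193 Bcl11b reads per Foxp1 read in spleen against 1.92 ± 0.188 in mLN (SD, n = 3 each), without overlap.

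Satb1 (ENSMUSG00000023927), on the minus strand of chromosome 17 between 51736187 and 51833290, was at 657, 648 and 657 CPM in spleen, a spread of about a percent, and at 836, 855 and 812 CPM in mLN. The groups were far apart against that spread, with a log2 fold change of 0.35 ± 0.0530 (SE; 1.28-fold, adjusted p = 3.30e-05). It was 0.48 with the GC trend removed and 0.28 with the length trend removed. The gene models Gm36931 and Gm6934 overlap Satb1 exons and had 64 to 90 and 80 to 133 counts per library.

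Ets1 (ENSMUSG00000032035), on the plus strand of chromosome 9 between 32636221 and 32757820, had the highest read counts of the set. It was at 1353, 1332 and 1318 CPM in spleen and at 1608, 1641 and 1565 CPM in mLN, again without overlap. The log2 fold change was 0.27 ± 0.0512 (SE; 1.20-fold, adjusted p = 4.32e-04), the smallest rise that passed. Ets1 was the one factor whose call ended under an alternative: removal of the length trend left 0.11 (adjusted p = 0.0821).

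Ikzf1 (ENSMUSG00000018654), on the plus strand of chromosome 11 between 11685003 and 11772926, encodes Ikaros, a zinc finger protein that acts through NuRD. It was at 705, 691 and 742 CPM in spleen and at 948, 978 and 932 CPM in mLN, with no overlap, and the log2 fold change was 0.42 ± 0.0542 (SE; 1.34-fold, adjusted p = 5.63e-06). With the length trend removed it was 0.34 (1.26-fold, adjusted p = 4.84e-05). Ikzf3 (ENSMUSG00000018168), on the minus strand of chromosome 11 between 98464902 and 98546031, encodes the related Aiolos. It was at 91.1, 96.8 and 100.3 CPM in spleen and at 111, 107 and 100.8 CPM in mLN. Spleen 3 and mLN 3 were nearly equal, and the log2 fold change of 0.15 ± 0.0789 (SE; 1.11-fold) did not pass (adjusted p = 0.18). It passed with both libraries numbered 3 left out (0.20, adjusted p = 0.0433) and with the GC trend removed (0.20, adjusted p = 0.0231), and was 0.0062 on median-centred log2 TPM. The ratio of Ikzf1 to Ikzf3 reads within a library was 7.43 ± 0.304 in spleen against 8.97 ± 0.365 in mLN (SD, n = 3 each), without overlap. These ratios were not tested.

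Myb (ENSMUSG00000019982), on the minus strand of chromosome 10 between 21124935 and 21160984, encodes c-MYB, a factor of haematopoietic progenitors and thymocytes that is kept at a low level in resting T cells. It was at 20.8, 22.2 and 19.0 CPM in spleen and at 9.51, 11.03 and 8.67 CPM in mLN. Every mLN library was at about the same low level, well under every spleen library, and the log2 fold change was -1.09 ± 0.166 (SE; 0.470 of the spleen level, adjusted p = 3.59e-05). Of all tested genes, 2.76% had a more negative fold change. The direction and the call held under the 24 alternatives run, with log2 fold changes from -1.19 to -0.79. Its counts were the lowest of the set, 294 to 390 per library in spleen and 147 to 175 in mLN. The antisense model Gm26577, which overlaps Myb exons, had 0 to 14 counts per library.

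Since Myb is also high in progenitor and thymocyte stages, markers of such cells are given beside it. Of 9 neutrophil and myeloid progenitor genes, 5 were tested and all 5 were lower in mLN, with a summed level of 31.3 to 37.8 CPM in spleen and 0.75 to 1.24 CPM in mLN. Those 5 (S100a8, S100a9, Camp, Ngp and Ltf) lay between 0 and 0.347 CPM in mLN. They passed the filter on low counts only through spleen and could come out only as lower. The defining progenitor markers Elane and Cd34 were at 0 in every library, Mpo was at 0 in all but mLN 3, where it was at 0.0495 CPM, and Kit was at 0.529 ± 0.194 and 0.261 ± 0.307 CPM (SD, n = 3 each). The summed B cell and memory T cell levels given above also moved in the direction of Myb. Their part in the difference was not tested.

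The genes whose pattern was closest to that of Myb were Tnfrsf26 (root mean square difference 0.0567), a member of the TNF receptor family, Msmo1 (0.0719), an enzyme of cholesterol synthesis, and P2ry10 (0.12), a lipid receptor of lymphocytes. Tnfrsf26 was at 57.2, 63.6 and 53.5 CPM in spleen and at 29.0, 33.2 and 26.6 CPM in mLN. Tnfrsf26 shared with Myb the highest value in replicate 2 of both organs. Transcript GC contents were 44.0% for Tnfrsf26, 44.7% for Msmo1, 36.9% for P2ry10 and 46.1% for Myb, under the median of 50.1%. The part of GC content in this likeness was not tested. Bach2 and Myb moved in opposite directions, and the ratio of their reads within a library was 5.64, 5.22 and 6.58 in spleen and 19.95, 16.0 and 21.9 in mLN.

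**Figure D3:**
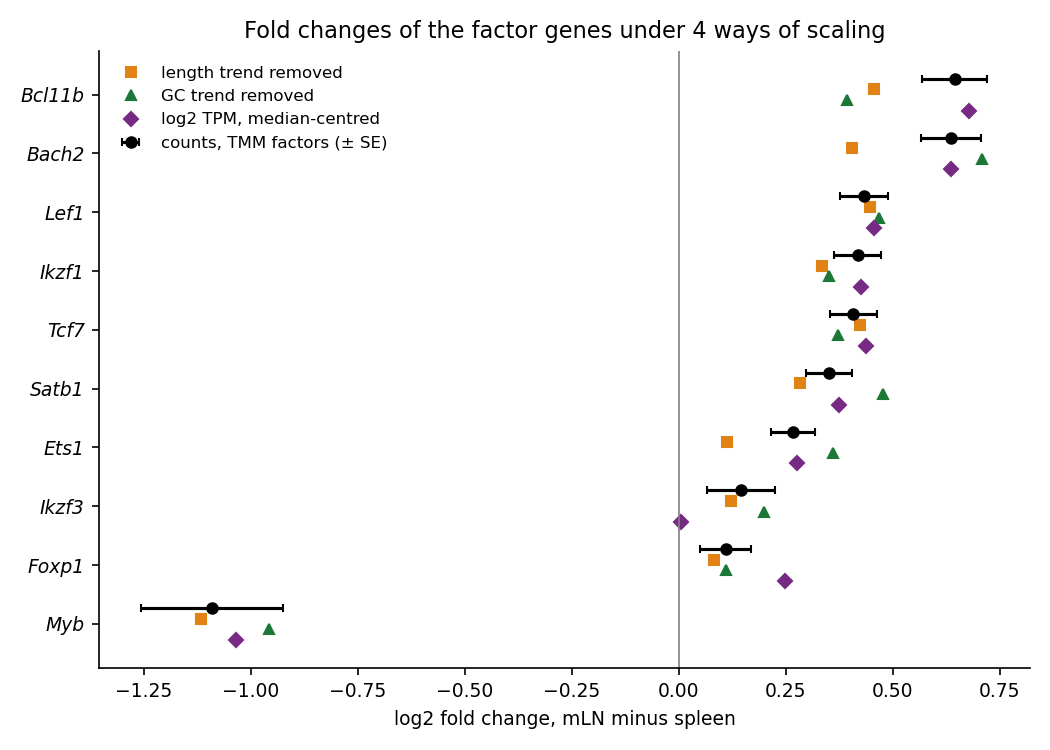
Log2 fold change (mLN minus spleen) of each factor gene from counts with TMM factors (circles, bars show the standard error) and under 3 other scalings. Ets1, Bach2 and Bcl11b move toward 0 when the length trend is removed, Bcl11b also when the GC trend is removed, and Myb stays between -1.12 and -0.96.

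Levels per transcript length, in the deposited TPM (transcripts scaled to a common total), put the 10 genes in the same order of means in both organs. In spleen the order was Tcf7 at 559.9 ± 27.5 TPM, Ets1 at 341 ± 3.80, Ikzf1 at 230.4 ± 21.8, Satb1 at 220.0 ± 7.82, Lef1 at 208 ± 12.2, Foxp1 at 104 ± 12.3, Bcl11b at 75.7 ± 16.6, Ikzf3 at 44.2 ± 6.05, Bach2 at 20.3 ± 0.578 and Myb at 8.88 ± 0.412 TPM (SD, n = 3). The ranges of Ikzf1 and Satb1 overlapped, with Ikzf1 the higher in 2 of the 3 libraries. Those of Satb1 and Lef1 overlapped as well, although Satb1 was above Lef1 within each of the 3 libraries (220.3 against 211, 212 against 195 and 228 against 218 TPM). In mLN the same order ran from Tcf7 at 901 ± 30.0 TPM over Ets1 at 491 ± 18.1, Ikzf1 at 367 ± 20.9, Satb1 at 339 ± 4.77, Lef1 at 339 ± 12, Foxp1 at 146 ± 7.35, Bcl11b at 144 ± 22.3, Ikzf3 at 52.7 ± 5.16 and Bach2 at 38.3 ± 2.44 to Myb at 4.73 ± 0.492 TPM (SD, n = 3). There Satb1 and Lef1 overlapped, with Satb1 the higher in 1 of the 3 libraries. Foxp1 and Bcl11b, whose ranges had been apart in spleen, overlapped too, with Foxp1 the higher in 2 of the 3. Bach2 and Myb, the least abundant of the set, moved away from each other. On this scale, which carries the shift of 0.21 named above, 8 of the 10 genes were higher in every mLN library than in every spleen library, Myb was lower, and Ikzf3 overlapped. Of all tested genes, 35.1% and 6.22% lay apart in those directions in TPM.

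Isoform use was examined through the mean transcript length that RSEM gives per gene and library, which moves only when the shares of a gene's isoforms move. None of the 10 genes passed (0 of 10 by limma at an adjusted p of 0.05, and 0 of 10 at an unadjusted p of 0.05). Over the 10052 genes whose length could vary, 0.0298% changed and 560 had an unadjusted p under 0.05. The lengths overlapped between organs for all 10. Tcf7, which makes long and short proteins from different starts, kept a mean length between 2319 and 2376 nucleotides. Ikzf3 varied most, from 2409 nucleotides in spleen 1 to 3458 in mLN 1, with both organs spread over that range. Bcl11b was at 6107, 5930 and 5197 nucleotides in spleen and at 6059, 5772 and 5120 in mLN, so the libraries numbered 3 were the lowest in both organs, and Ikzf1 showed the same with 3724 and 3736 against 3972 to 4230 in the others.

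The relatives of the factors were 19 genes of the same families. Of 16 tested, 4 were higher and 0 lower, beside 16.1% higher and 13.5% lower over all tested genes. Among tested genes in the length range of the 10 factor genes, 25.8% were higher and 7.52% lower. The median log2 fold change of the relatives was 0.10. Elf4, an ETS factor that restrains T cell proliferation, rose from 259 ± 9.39 to 369 ± 4.54 CPM (SD, n = 3 each; adjusted p = 1.06e-06), and Ets2 rose 1.51-fold (adjusted p = 9.58e-05). Mybl2, a cell cycle relative of Myb, went the other way from Myb, from 1.23 ± 0.154 to 3.25 ± 0.114 CPM (SD, n = 3 each; adjusted p = 0.0173), but at a low level. Its call was lost without spleen 3, mLN 1 or mLN 3 (adjusted p = 0.0506, 0.0548 and 0.0527) and on log2 TPM plus 1 (adjusted p = 0.0944). Fli1 rose 1.16-fold (adjusted p = 0.0457), a call that was lost in 5 of the 6 fits that left out 1 library (adjusted p up to 0.162), spleen 3 being the exception, and also with the length trend removed (adjusted p = 0.0959) or with upper-quartile factors (adjusted p = 0.115). Tcf7l2, Foxp2 and Erg were too low to test.

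Of 24 tested partner and cofactor genes, 14 rose in mLN and 1 fell, with a median log2 fold change of 0.36. The shares over all tested genes were 16.1% and 13.5%, and in the length range of the factor genes 25.8% and 7.52%. Tle3, a Groucho-family corepressor bound by TCF1 and LEF1, was at 138, 153 and 177 CPM in spleen and at 288, 289 and 310.4 CPM in mLN, a log2 fold change of 0.92 ± 0.0771 (SE; 1.89-fold, adjusted p = 3.10e-08). This rise exceeded that of each of the 7 factors called higher, and the organs did not overlap. Chd4, the remodelling ATPase of NuRD, rose from 561 ± 15.1 to 841 ± 19.8 CPM (SD, n = 3 each; adjusted p = 8.70e-08). The histone acetyltransferase genes Ep300 and Crebbp both rose 1.5-fold (adjusted p = 6.65e-07 and 6.10e-06). Transcripts of Ep300, Crebbp and Chd4 are long, at 5894, 8551 and 5421 nucleotides, against a median of 2330 over all tested genes. Bcl9l, an adaptor of beta-catenin, rose 1.56-fold (adjusted p = 4.27e-04), and Mafk, a small MAF protein that pairs with BACH2, 1.58-fold (adjusted p = 1.49e-04). Ctnnb1, for beta-catenin itself, was at 370.3 ± 7.57 and 347 ± 8.68 CPM (SD, n = 3 each; adjusted p = 0.239). Rbbp7, a histone-binding NuRD subunit, was the 1 lower gene at 0.870 of its spleen level (adjusted p = 0.0335), a call that did not survive leaving out spleen 1, spleen 2, mLN 1 or mLN 2 (adjusted p = 0.0777 to 0.113). With the GC trend removed Rbbp7 was at -0.071 (adjusted p = 0.397), and with the length trend removed at -0.15 (adjusted p = 0.144). Both Ctnnb1 and Rbbp7 turned slightly positive on log2 TPM. Tle2 was too low to test and the symbol Tle5 was not matched.

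Genes that TCF/LEF factors are known to activate did not move one way. Of 10 tested, 3 were higher and 3 lower (16.1% and 13.5% of all tested genes), with a median log2 fold change of -0.18. Axin2, a feedback inhibitor and classical readout of beta-catenin with TCF/LEF, was at 43.3, 38.0 and 45.5 CPM in spleen and at 62.7, 61.9 and 66.8 CPM in mLN (1.51-fold, adjusted p = 7.03e-05). Myc rose 1.66-fold (adjusted p = 2.29e-06) and Tox, a chromatin factor, 1.40-fold (adjusted p = 0.00253). On median-centred log2 TPM, Axin2 and Tox missed the threshold (adjusted p = 0.0577 and 0.0629). In the other direction, Il7r, the IL-7 receptor chain, fell to 0.568 of its spleen level (adjusted p = 1.28e-08). Slamf6 fell to 0.696 (adjusted p = 1.41e-05) and the chemokine receptor gene Ccr7 to 0.797 (adjusted p = 1.53e-04). The call of Ccr7 was lost on log2 TPM (adjusted p = 0.471). Nkd1, another classical target, was at 0 in all libraries. Immediate early genes, which respond to handling and stimulation as Myc does, had a summed level of 433 to 559.9 CPM in spleen and 701 to 866 CPM in mLN. Of the 8 tested, 4 were higher, beside 16.1% of all tested genes. The part of immediate early genes in these differences was not tested.

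Genes held down by BACH2 showed mostly low levels in both organs. Of 13 listed, 7 were tested, 2 were higher and 1 lower in mLN (16.1% and 13.5% of all tested genes). The median log2 fold change was 0.05. Prdm1, the effector regulator BLIMP-1 that BACH2 represses, was at 9.19 ± 2.19 and 9.61 ± 3.34 CPM (SD, n = 3 each; adjusted p = 0.906), and the sign of its difference depended on the scaling. Irf4, induced by antigen receptor signals, was at 4.94, 3.46 and 7.65 CPM in spleen and at 8.71, 12.2 and 10.2 CPM in mLN (adjusted p = 0.00897), a call that was lost without spleen 2 or mLN 2 (adjusted p = 0.0656 and 0.0556), and on median-centred log2 TPM (adjusted p = 0.0614). Gata3, needed for CD4+ T cell development and Th2 cells, rose from 31.9 ± 3.10 to 44.6 ± 3.84 CPM (SD, n = 3 each; adjusted p = 0.00249). Rora was at 9.06 ± 0.625 and 5.82 ± 1.09 CPM (SD, n = 3 each; adjusted p = 0.0399), and no longer passed without spleen 1, spleen 2, mLN 1 or mLN 3 (adjusted p = 0.0764 to 0.149), on log2 TPM plus 1 (adjusted p = 0.479), with the GC trend removed (adjusted p = 0.0524) or with no filter on low counts (adjusted p = 0.0532). The cytokine genes Il4 and Il13 were at 0 in all libraries, and Ifng, Gzmb, Ccr4 and Il1rl1 were too low to test.

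Of 11 tested genes of quiescence and circulation, 2 were higher and 4 lower (16.1% and 13.5% of all tested genes). Their median log2 fold change was 0.03. The 2 higher were the forkhead factors Foxo1, from 306 ± 9.57 to 416 ± 17.7 CPM (SD, n = 3 each; adjusted p = 7.45e-06), and Foxo3 at 1.33-fold (adjusted p = 0.00328), a call lost with the length or the GC trend removed (adjusted p = 0.183 and 0.0544) and on median-centred log2 TPM (adjusted p = 0.175). The 4 lower were Slfn2, needed for T cell quiescence, at 0.642 of its spleen level (adjusted p = 1.60e-07), the antiproliferative gene Btg2 at 0.802 (adjusted p = 6.59e-04), Klf3 at 0.848 (adjusted p = 0.00544) and the cell cycle inhibitor gene Cdkn1b at 0.873 (adjusted p = 0.0390). The calls of Btg2, Klf3 and Cdkn1b were lost on log2 TPM, where the difference of Cdkn1b turned to 0.0029, and that of Cdkn1b also without spleen 3, mLN 1 or mLN 2 (adjusted p = 0.0691 to 0.177). With the GC trend removed, Cdkn1b was at a log2 fold change of -0.023 (adjusted p = 0.863).

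Of 14 tested genes for other T lineage transcription factors, 9 were higher and 1 lower (16.1% and 13.5% of all tested genes). Their median log2 fold change was 0.39. Nfatc2, a calcium-regulated factor, rose from 75.8 ± 13.3 to 128 ± 5.90 CPM (SD, n = 3 each; adjusted p = 1.55e-05), Runx3 rose 1.56-fold (adjusted p = 1.19e-05) and Foxo1, also in the preceding list, 1.36-fold. The 1 lower gene, Zeb2, which marks effector and myeloid cells, was at 1.44 ± 0.577 CPM in spleen but only at 0.236 ± 0.197 in mLN (SD over 3 libraries each, adjusted p = 0.0141), near the 0.150 to 0.227 CPM that 3 counts make in these libraries. Zeb2 passed the filter on low counts only through spleen. Its call was lost without spleen 1, spleen 3, mLN 1 or mLN 3 (adjusted p = 0.0558 to 0.0900), and on log2 TPM plus 1 (adjusted p = 0.333).

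Genes of thymocytes and recent thymic emigrants, in which Myb, Tcf7, Lef1 and Bcl11b are also high, were lower or not called. Of 9 tested, 0 were higher and 4 lower (16.1% and 13.5% of all tested genes), with a median log2 fold change of -0.24. Itm2a fell from 81.9 ± 7.61 to 56.9 ± 2.22 CPM (SD, n = 3 each; adjusted p = 1.15e-04), and Cd1d1 to 0.789 of its spleen level (adjusted p = 0.0143). The call of Itm2a was lost on log2 TPM plus 1, at -0.25 (adjusted p = 0.0998). Themis, a T cell receptor signalling adaptor of thymocytes, was at 0.853 (adjusted p = 0.0286), a call that was lost without spleen 1, spleen 2 or mLN 3 (adjusted p = 0.0878 to 0.116). Removal of the GC trend left Themis at -0.024 on the log2 scale (adjusted p = 0.762). Cd24a was at 2.68, 2.55 and 6.10 CPM in spleen and at 1.59, 0.975 and 1.09 CPM in mLN (adjusted p = 0.00979), and without spleen 3 its call was lost (adjusted p = 0.153), as it was on log2 TPM plus 1 (adjusted p = 0.154). That of Cd1d1 was lost without mLN 2 (adjusted p = 0.0625) and with the length or the GC trend removed (adjusted p = 0.196 and 0.0566), and the differences of Cd1d1 and Themis turned slightly positive on log2 TPM. Dntt, the thymic nucleotide-adding enzyme, was at 15.9 ± 1.49 and 13.2 ± 1.80 CPM (SD, n = 3 each; adjusted p = 0.245), and Ptcra was at 0 in all libraries.

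**Figure D4:**
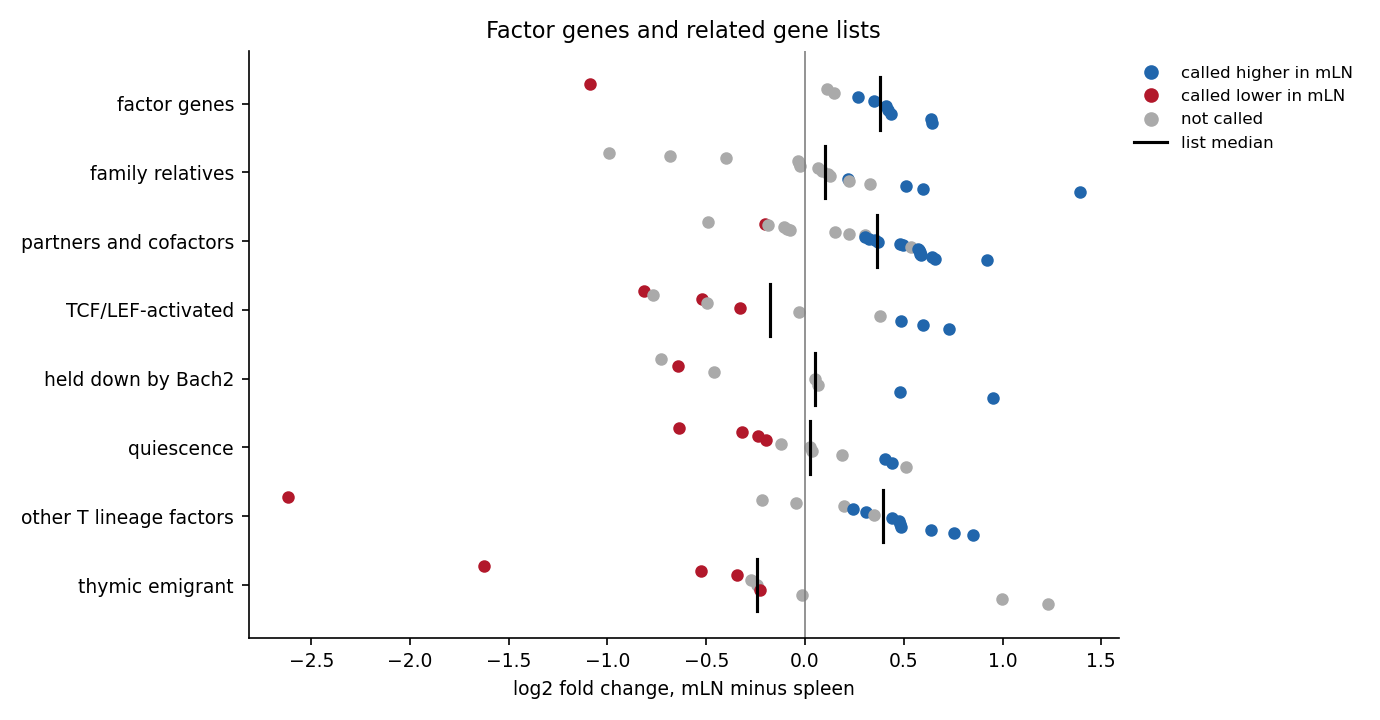
Log2 fold change (mLN minus spleen) of each tested gene in the 10 factor genes and 7 related lists, with vertical bars at each list's median. The medians of the factor genes (0.38), partners (0.36) and other T lineage factors (0.39) lie to the right, and those of the TCF/LEF-activated (-0.18) and thymic emigrant (-0.24) genes to the left.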

How the data were processed

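RNA from naive CD4+ T cells of 3 spleen and 3 mLN samples was sequenced from directional libraries of polyadenylated RNA, per the labels. STAR, RSEM and mm10 are named in the submitters' processing notes, without versions. The annotation release and strand setting are not stated there. Per the file headers, the deposited expected counts are estimated by RSEM for each gene and carry no normalization. TPM and FPKM are RSEM's length-scaled values, deposited by the authors, and FPKM was not used. Mean transcript lengths are in nucleotides, per the file headers.

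Here, expected counts were rounded, filtered with filterByExpr by group (12486 genes left) and scaled by TMM. Organs were compared with edgeR (glmQLFit, robust, and glmQLFTest, two-sided), with no other term in the model. P-values were adjusted by Benjamini-Hochberg over all genes tested, with a threshold of 0.05. Standard errors were taken as the absolute log2 fold change divided by the root of the F statistic. CPM uses library totals and TMM factors. Transcript lengths were tested with limma on log2 values, over genes whose length varied. GC content is the median over GENCODE vM21 transcripts of GRCm38, and symbols were found for 55141 of 55487 identifiers. Length and GC trends were removed per library by loess (span 0.3). The scripts were tested on simulated counts. Alternatives were DESeq2, limma-voom, upper-quartile or RLE factors, log2 TPM with a pseudocount of 1 or 0.1 and median-centred, no or a stricter filter, a replicate block, removed trends, no mitochondrial or ribosomal protein genes, a threshold of 0.01, and libraries left out.

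The tools were edgeR 4.0.16, limma 3.58.1 and DESeq2 1.42.0 in R 4.3.3, and pandas 2.3.3, numpy 2.4.6 and matplotlib 3.10.9 in Python 3.11.15. No replicate pair agreed within sampling noise (chi-square per degree of freedom 5.59 to 11.8). The 10 genes and all lists were chosen with earlier results of these data known. Named were the 10, the 3 tested genes with the smallest p in each related list, listed genes too low to test, and the 3 genes most like the factors with the largest rise and fall, among genes of at least 20 CPM with a standard symbol. Other genes named were chosen after their values were seen. Some listed genes are not reported here and are left out of the list counts.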

Additional observations from a re-analysis of the deposited data

How the results depend on the processing

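Each of the 10 factor genes kept its direction under all 24 alternatives: of 240 values, 232 stayed on their side of the threshold, 7 passed it newly (Foxp1 and Ikzf3), 1 missed it (Ets1) and 0 changed sign. The count of factor genes higher in mLN stayed between 6 and 9 and the count lower at 1, with 7 higher and 1 lower in each of the 6 fits that left out 1 library. Over all tested genes the counts were 2010 higher and 1689 lower, with 1500 to 1970 higher and 1324 to 1710 lower when 1 library was left out. With both libraries numbered 1 left out they were 1319 and 1044, with those numbered 2 left out 1121 and 935, with those numbered 3 left out 2105 and 1791, on log2 TPM plus 1 2757 and 384, on log2 TPM plus 0.1 2765 and 389, on median-centred log2 TPM 798 and 947, and at an adjusted p of 0.01 1406 and 1069. The share of calls that were higher was 54.3%, against 45.3% with upper-quartile factors, 87.8% on log2 TPM, 64.4% with the GC trend removed and 61.0% with the length trend removed. The median over all tested genes moved to 0.24 on log2 TPM plus 0.1.

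The labels do not say what a replicate number marks. Deviations of same-numbered libraries correlated at 0.022, 0.0023 and 0.065, none above the 0.1 required here to treat the numbers as pairs, and spleen 2 correlated best with mLN 1. The libraries numbered 3 had the highest of the 9 correlations and shared the deviation with GC content, and whether they share a batch was not tested. With the replicate number as a block, 2566 genes were higher and 2140 lower, 8 of the factor genes were higher, and Foxp1 passed (0.11, adjusted p = 0.0358). With the block and the GC trend removed, 9 were higher and Foxp1 and Ikzf3 both passed (adjusted p = 0.0404 and 0.0105). Fits with both libraries of a number left out, and trends removed with the block, were chosen after seeing the data.

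Among the other named genes some differences changed sign, and the cause was not tested. Of these, Cd1d1 (-0.34), Themis (-0.23), Rbbp7 (-0.20) and Cdkn1b (-0.20) had been called lower in counts, while Ctnnb1, Bach1 and Prdm1 had not been called. On log2 TPM plus 1 and plus 0.1 the values were 0.0736 and 0.0749 for Cd1d1, 0.0197 and 0.0199 for Rbbp7, 0.0524 and 0.0526 for Ctnnb1, 0.00287 and 0.00291 for Cdkn1b, 0.0509 and 0.0513 for Themis, and 0.248 and 0.267 for Bach1. Bach1 was also at 0.00102 on median-centred log2 TPM, 0.0774 with the GC trend removed and 0.0782 with the block added, and ranged from -0.0859 to 0.00701 with 1 library left out. Prdm1 was at -0.0320 with limma-voom, -0.00555 on median-centred log2 TPM, -0.105 with the length trend removed, -0.112 with the block added and -0.0502 with both libraries numbered 2 left out, and ranged from -0.261 to 0.251 with 1 library left out. With 147 to 390 counts per library, the value of Myb is the least precise of the 10.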
